A study of Mus musculus with 2 samples.

Results

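The Slc25 carriers are the proteins of solute carrier family 25, taken here as every gene whose symbol starts with Slc25a and a number. The table of liver expression held 45 such genes of 15526 genes in all. RefSeq lists 48 genes with such symbols on GRCm38, and the 3 without a row were Slc25a31, Slc25a54 and the pseudogene Slc25a5-ps. The symbol rule used no measured value. Of the 45 carriers, 28 reached a mean of 10 CPM (read counts scaled by the authors to library size) over the 2 libraries and entered the counts past a limit. The other 17 stayed under that floor and are described apart.

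The AAOT library was made from liver RNA of 3 female NOG-TKm30 mice of 22 weeks given 0.3% acetoaceto-o-toluidide (AAOT), which contains the aromatic amine o-toluidine bound as an amide, for 4 weeks. The control library was made from 3 female NOG-TKm30 mice of the same age at 0% AAOT, and in each case the RNA of the mice was mixed before sequencing. All 6 mice carried the same transgene, a mutant (clone 30) of the thymidine kinase of herpes simplex virus driven by the enhancer and promoter of the mouse transthyretin gene, which is active in hepatocytes. NOG mice are severely immunodeficient, and the labels also name C57BL as the background. With 1 library per group there was no replicate, so no test was made. A ratio describes these pools, and the interval beside it is an exact 95% interval for counting error alone.

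Slc25 carriers are small membrane proteins with a shared repeat of membrane-spanning helices. Most sit in the inner mitochondrial membrane, where they exchange nucleotides, phosphate, carboxylates, amino acids and cofactors between matrix and cytosol. In hepatocytes they link the urea cycle, gluconeogenesis, fatty acid oxidation and the export of citrate for lipid synthesis to the matrix. The family name covers 2 exceptions among the carriers described here, since Slc25a17 is a peroxisomal protein and Slc25a46 lies in the outer mitochondrial membrane.

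The libraries held 16528533 reads in the AAOT pool and 18801241 reads in the control pool, of which 68564 and 80238 fell on the carriers. Hepatocyte markers were abundant, with albumin (Alb) at 50830 CPM in the AAOT pool and 57688 CPM in the control pool. Of these 5 markers 4 were lower in the AAOT pool, Apoa1 by 1.63-fold, Cyp2e1 by 1.36-fold, Ttr by 1.28-fold and Alb by 1.13-fold, while Cps1 was 1.196-fold higher. Of all genes at the floor, 20.8% were lower and 18.7% higher with counting intervals that left out equality. More reads narrow the interval, and the hepatocyte markers had far more than the median gene. The macrophage, endothelial, stellate and cholangiocyte markers stayed between 0.538 CPM, for Krt7, and 139 CPM, for Stab2, in both pools. Among them the stellate markers Acta2, Col1a1 and Lrat were 1.95-fold, 1.57-fold and 1.23-fold lower and the endothelial marker Pecam1 1.24-fold lower. The endothelial marker Lyve1 was 1.57-fold higher and the macrophage markers Adgre1 and Csf1r 1.23-fold and 1.18-fold higher. The counting intervals of all these ratios left out equality, those of the other markers of these 4 cell types held it, and the part of any marker in the carriers' values was not tested. Acta2, with 48 reads in the AAOT pool and 104 reads in the control pool, Col1a1 and Lyve1 lay under the floor of a mean of 10 CPM. In bulk liver, fewer cells of a type and less RNA per cell cannot be told apart.

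A group of 4 carriers was at least 1.5-fold lower in the AAOT pool, and 0 carriers at the floor passed that limit upward. They were Slc25a30, a relative of the uncoupling proteins, Slc25a33, a pyrimidine nucleotide carrier, Slc25a25, a calcium-regulated carrier that exchanges ATP-Mg for phosphate, and Slc25a42, a coenzyme A carrier. The ratio counted was log2((AAOT + 1)/(control + 1)), in CPM. By this measure 4 of 28 carriers were at least 1.5-fold lower, where 1.39% of the 7761 genes at the same floor were, and 0 of 28 were at least 1.5-fold higher, where 2.07% were. At a limit of 2-fold, 0 of 28 carriers were higher, beside 0.773% of all genes, and 0 of 28 were lower, beside 0.425%. The 4 lower genes lie on 4 chromosomes and belong to 3 of the 9 roles by which the carriers were grouped. As the counts turn on them, the sequence in front of their starts is shown.

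The sequences are the 250 bases before a RefSeq start on GRCm38.p6, read 5′ to 3′ on the gene's strand, and all 4 genes are on the minus strand. Slc25a25 has 3 such starts, of which the outermost (A, at chr2:32451471-32451720) and the innermost (C, at chr2:32424067-32424316) are printed. The other windows lie at chr14:75787038-75787287 for Slc25a30, at chr4:149774268-149774517 for Slc25a33 and at chr8:70212282-70212531 for Slc25a42. Capitals mark matches, on either strand, to the motifs named after the sequences.
Slc25a30: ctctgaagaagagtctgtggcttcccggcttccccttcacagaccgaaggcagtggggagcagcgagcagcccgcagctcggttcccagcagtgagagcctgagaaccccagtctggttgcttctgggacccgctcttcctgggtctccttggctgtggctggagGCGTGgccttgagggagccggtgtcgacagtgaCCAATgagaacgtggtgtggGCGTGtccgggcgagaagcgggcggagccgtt
Slc25a33: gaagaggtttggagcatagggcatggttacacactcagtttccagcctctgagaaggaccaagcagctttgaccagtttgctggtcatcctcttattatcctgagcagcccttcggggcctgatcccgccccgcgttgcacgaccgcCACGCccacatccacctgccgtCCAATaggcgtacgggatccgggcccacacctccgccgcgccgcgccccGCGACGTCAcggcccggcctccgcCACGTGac
Slc25a25 start A: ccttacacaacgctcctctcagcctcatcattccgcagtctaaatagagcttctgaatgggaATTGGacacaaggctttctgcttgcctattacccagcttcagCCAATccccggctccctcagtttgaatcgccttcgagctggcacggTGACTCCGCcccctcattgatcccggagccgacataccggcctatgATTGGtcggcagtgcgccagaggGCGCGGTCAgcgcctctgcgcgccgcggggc
Slc25a25 start C: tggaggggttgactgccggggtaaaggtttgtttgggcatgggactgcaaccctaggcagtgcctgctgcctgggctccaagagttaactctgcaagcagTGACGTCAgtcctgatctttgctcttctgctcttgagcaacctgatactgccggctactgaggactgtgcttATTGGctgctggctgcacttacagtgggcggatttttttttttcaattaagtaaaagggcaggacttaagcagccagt
Slc25a42: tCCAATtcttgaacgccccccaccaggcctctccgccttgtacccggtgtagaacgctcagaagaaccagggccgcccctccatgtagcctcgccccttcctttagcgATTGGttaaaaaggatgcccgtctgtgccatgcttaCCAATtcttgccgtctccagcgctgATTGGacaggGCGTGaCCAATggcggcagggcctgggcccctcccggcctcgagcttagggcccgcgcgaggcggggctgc

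Each of these windows held the CCAAT box (CCAAT), which 33.8% of all 32851 RefSeq windows of this length hold. Among the 30 windows of the 23 carriers at the floor that have one, 16 held it. The cAMP response element TGACGTCA stood 150 bases before start C of Slc25a25, and 1.55% of all windows hold it. An E-box (CACGTG, in 6.02% of all windows) began 8 bases before the start of Slc25a33, and 4 of the 30 carrier windows held one. The xenobiotic response element core (GCGTG, in 28.2% of all windows) was present in Slc25a30, Slc25a33 and Slc25a42, and not in any of the 3 windows of Slc25a25. It was in 16 of the same 30 carrier windows. The antioxidant response element core (TGACNNNGC, in 10.2% of all windows) was present in Slc25a33 and at start A of Slc25a25. Of the 30 carrier windows, 7 held it. The GC content was 51.6% at start C of Slc25a25 and 60% to 64.4% in the other printed windows, beside a median of 52.4% over all windows. The letters of 5 more motifs were not in these windows. Of all windows, 0.819% hold the D-box (TTATGTAA), 0.0335% the PPAR element (AGGTCA repeated after 1 base), 4.98% the NRF1 site (GCGC repeated after 2 bases), 2.88% the ETS site (CCGGAAGT) and 12.4% the TATA box (TATAAA). A match is a match of letters, and binding was not measured.

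Slc25a30 (chromosome 14, 75757534 to 75787037, GRCm38) had 342 reads in the AAOT pool and 711 reads in the control pool. That is 20.4 CPM in the AAOT pool and 38.3 CPM in the control pool, or 1.87-fold lower with AAOT (95% counting interval 1.64 to 2.14). It had the lowest ratio of the 28 carriers and stood at rank 46 from the lowest of 7761 genes. Its relatives Slc25a14 and Slc25a27, which like it resemble the uncoupling proteins, were nearly silent, at 1.79 and 0.538 CPM in the AAOT pool and 1.88 and 0.269 CPM in the control pool.

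Slc25a33 (chromosome 4, 149744036 to 149774267) brings pyrimidine nucleotides into mitochondria, where they serve the synthesis of mitochondrial DNA and RNA. It had 232 reads in the AAOT pool and 449 reads in the control pool, which is 13.9 CPM in the AAOT pool and 24.2 CPM in the control pool. The AAOT pool was 1.74-fold lower (1.49 to 2.05). The other pyrimidine nucleotide carrier, Slc25a36, stood at 3.76 CPM in the AAOT pool and 2.15 CPM in the control pool, 1.75-fold higher (1.16 to 2.67). Slc25a36 lay under the floor, with 63 reads in the AAOT pool and 40 reads in the control pool. Both genes have under 90% of 50-base stretches that no other annotated gene holds, 87.4% for Slc25a33 and 88.2% for Slc25a36. The stretches that Slc25a33 shares are those of an overlapping antisense gene, Gm13068, and the sources used here do not say whether reads were counted by strand.

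Slc25a25 (chromosome 2, 32414487 to 32451470) carries ATP-Mg into or out of the matrix in exchange for phosphate, under control of calcium, and so changes the pool of adenine nucleotides there. It had 5443 reads and 325 CPM in the AAOT pool, against 9852 reads and 531 CPM in the control pool, where no carrier had more reads. The AAOT value was 1.63-fold lower (1.58 to 1.69), the narrowest interval of the 4. The second main carrier of this kind, Slc25a23, differed far less, at 350.1 CPM in the AAOT pool and 373 CPM in the control pool, 1.06-fold lower (1.03 to 1.10). The remaining members of this group were barely present, with Slc25a24 at 2.33 CPM in the AAOT pool and 2.75 CPM in the control pool. Slc25a41, which lies next to Slc25a23 on chromosome 17, had 0 reads in the AAOT pool and 2 reads in the control pool. A count of 0 allows up to 0.179 CPM at the depth of the AAOT pool (3 reads).

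Slc25a42 (chromosome 8, 70184340 to 70212281) moves coenzyme A into the matrix in exchange for adenine nucleotides. It was at 112 CPM in the AAOT pool and 169 CPM in the control pool, 1.51-fold lower (1.42 to 1.597), from 1873 and 3133 reads. Its log2 ratio of -0.588 lay just inside the limit of -0.585, and the next carrier, Slc25a20 at -0.43, lay clearly outside. Slc25a42 was no longer counted under 3 other scalings of the columns or with an added constant of 5 CPM, where 3 carriers were at least 1.5-fold lower. Slc25a16, a related carrier that is also needed for coenzyme A in mitochondria, was level, at 95.6 CPM in the AAOT pool and 97.4 CPM in the control pool, a ratio of 0.98 (0.92 to 1.05).

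**Figure D1:**
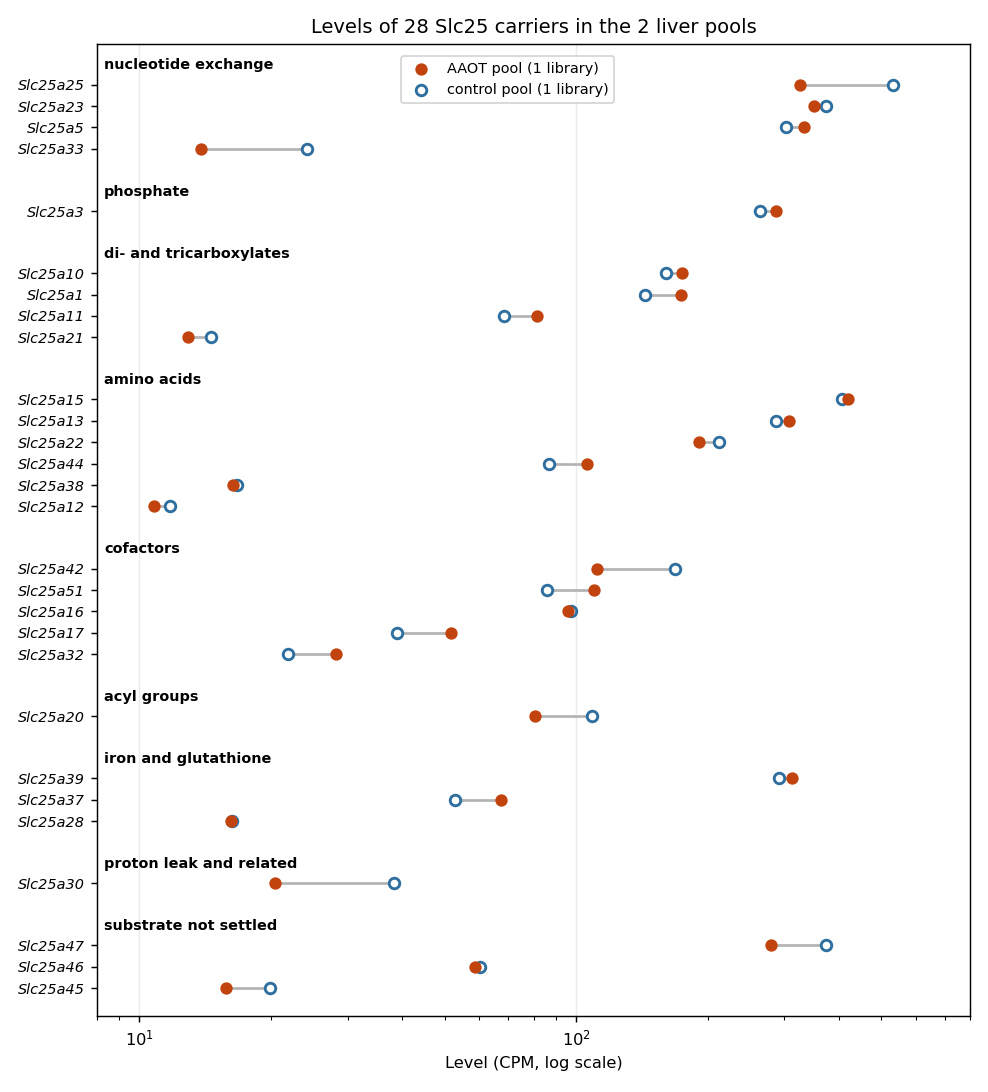
Level of each of the 28 carriers at the floor, in CPM on a log axis, with filled points for the AAOT pool, open points for the control pool and a grey line between them. Genes are grouped by what they carry. The wide gaps with the filled point on the left belong to Slc25a25, Slc25a33, Slc25a42 and Slc25a30, while Slc25a28 and Slc25a38 have points that nearly coincide.

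A carrier at least 1.5-fold lower was set against a related carrier in 3 pairs. The first gene of each pair was thus chosen for its low ratio, so the shares are a description. Levels of different genes were compared as CPM per kilobase of the longest coding transcript. Slc25a25 made up 47.0% (46.0 to 47.9) of the sum of Slc25a25 and Slc25a23 in the AAOT pool and 57.6% (56.8 to 58.3) in the control pool. Slc25a42 made up 53.5% (51.9 to 55.2) of the sum with Slc25a16 in the AAOT pool and 63.0% (61.7 to 64.4) in the control pool. Slc25a33 made up 91.1% (88.5 to 93.2) of the sum with Slc25a36 in the AAOT pool and 96.9% (95.7 to 97.8) in the control pool.

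The share depends on the transcript length chosen, while the change of the ratio between the genes does not. The ratio of Slc25a25 to Slc25a23 in the AAOT pool was 0.653 times that in the control pool. For Slc25a42 to Slc25a16 this factor was 0.676, and for Slc25a33 to Slc25a36 it was 0.328, which rests on the 63 and 40 reads of Slc25a36.

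Other pairs had 1 gene that made up nearly all of the sum in both pools. The liver form of the ADP/ATP carrier, Slc25a5, held 99.3% (99.0 to 99.4) of the sum with Slc25a4 in the AAOT pool and 99.2% (99.0 to 99.4) in the control pool. Of the aspartate-glutamate carriers, Slc25a13 (citrin) held 98.3% (98.03 to 98.5) of the sum with Slc25a12 in the AAOT pool and 98.03% (97.7 to 98.3) in the control pool. Slc25a39 held 99.5% (99.3 to 99.6) of the sum with the second glutathione carrier Slc25a40 in the AAOT pool and 99.2% (99.0 to 99.4) in the control pool. The ornithine carrier Slc25a15 held 98.8% (98.4 to 99.1) of the sum with Slc25a29 in the AAOT pool and 98.3% (97.9 to 98.7) in the control pool. In all 4 of these pairs the counting intervals of the pools overlapped, which does not show that the pools were equal. The ratio between the genes in the AAOT pool was 1.11, 1.16, 1.52 and 1.35 times that in the control pool, in this order. The factor of 1.52 rests on the 43 and 68 reads of Slc25a40, and that of 1.35 on the 51 and 74 reads of Slc25a29.

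**Figure D2:**
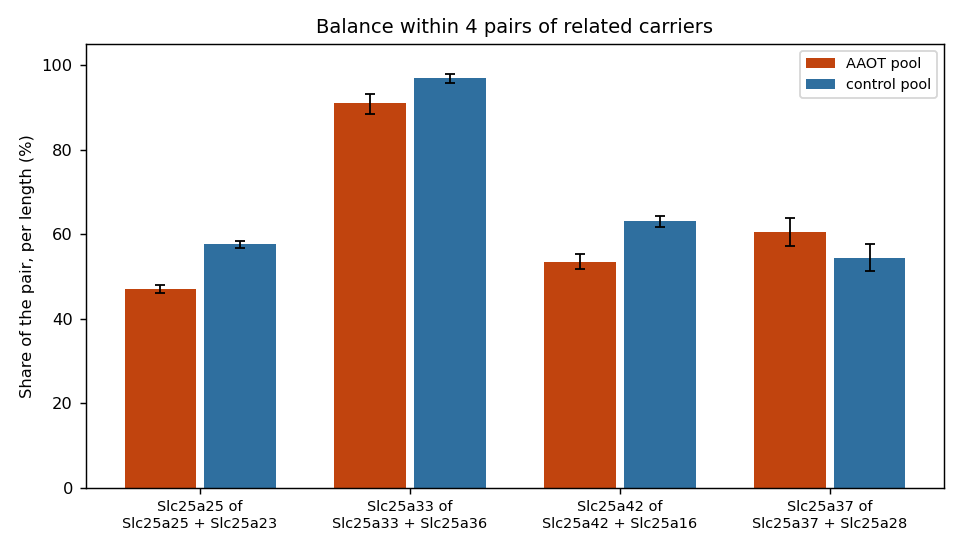
Share of the first gene in the sum of 2 related carriers, per length of the longest coding transcript, in percent from 0, with the AAOT pool left and the control pool right in each pair. Error lines are exact 95% counting intervals of the share. The share of Slc25a25, Slc25a33 and Slc25a42 is lower in the AAOT pool, and that of Slc25a37 is higher, at 60.5% in the AAOT pool and 54.4% in the control pool with intervals that overlap. The ratio of Slc25a37 to Slc25a28 in the AAOT pool was 1.28 times that in the control pool.

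Of the carriers that supply the ATP synthase, Slc25a5 and Slc25a3 were slightly higher in the AAOT pool and Slc25a4 was near equality. Slc25a5, which exchanges cytosolic ADP for matrix ATP, was at 332 CPM in the AAOT pool and 303 CPM in the control pool, a ratio of 1.10 (1.06 to 1.14). Slc25a3, which imports the phosphate, was at 287 CPM in the AAOT pool and 264 CPM in the control pool, a ratio of 1.09 (1.04 to 1.13). Per kilobase, Slc25a5 had the highest level of all 45 carriers in both pools, at 268 CPM in the AAOT pool and 244 CPM in the control pool. Only 53.4% of the 50-base stretches of Slc25a5 are unique to it, most of the rest being shared with processed copies such as Gm5560, so the split of its reads is uncertain. Slc25a4, the form of heart and muscle, had 65 reads in the AAOT pool and 73 reads in the control pool, a ratio of 0.99 (0.696 to 1.3995).

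Among carriers of di- and tricarboxylates, 3 of 4 were higher with intervals that left out equality and 0 lower, where 18.7% of all genes at the floor were higher and 20.8% lower by this rule. More reads narrow the interval, and these 3 had more than the median gene. Slc25a1 exports citrate, the carbon source of cytosolic acetyl-CoA, and was at 174 CPM in the AAOT pool and 144 CPM in the control pool, a ratio of 1.21 (1.14 to 1.27). Slc25a11, the oxoglutarate-malate carrier, was at 81.4 CPM in the AAOT pool and 68.2 CPM in the control pool, a ratio of 1.19 (1.10 to 1.29). Slc25a10, the dicarboxylate carrier, was at 174 CPM in the AAOT pool and 160.4 CPM in the control pool, a ratio of 1.09 (1.03 to 1.15). Slc25a21, which carries oxoadipate from lysine and tryptophan breakdown, was at 12.9 CPM in the AAOT pool and 14.6 CPM in the control pool, with an interval of 0.74 to 1.06 that holds equality.

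Acly and Me1, which act in the cytosol after the export of citrate, had higher ratios than Slc25a1. The interval of the cytosolic enzyme Mdh1, at 1.23 (1.19 to 1.27), overlapped that of the carrier. Acly, which splits the exported citrate, was at 406 CPM in the AAOT pool and 181 CPM in the control pool, a ratio of 2.25 (2.15 to 2.34). Malic enzyme Me1, which turns malate into pyruvate with NADPH, was at 412 CPM in the AAOT pool and 236 CPM in the control pool. Its ratio was 1.75 (1.68 to 1.81). Citrate synthase, Cs, which makes the citrate in the matrix, had a ratio of 1.05 (0.9997 to 1.10).

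Amino acid carriers stayed close to equality. Slc25a15, which brings ornithine to the urea cycle, was the carrier with the most reads in the AAOT pool, at 419 CPM against 406 CPM in the control pool, 1.03-fold in ratio (0.9986 to 1.07). Slc25a13, which exports aspartate for the urea cycle and the malate-aspartate shuttle, was at 307 CPM in the AAOT pool and 287 CPM in the control pool, a ratio of 1.07 (1.03 to 1.11). Slc25a22, a glutamate carrier, was at 191 CPM in the AAOT pool and 212 CPM in the control pool, 1.11-fold lower (1.06 to 1.16). Slc25a44, which imports branched-chain amino acids, had the highest ratio of this role, with 105.7 CPM in the AAOT pool and 86.5 CPM in the control pool, or 1.22 (1.14 to 1.31). Slc25a38, the glycine carrier of heme synthesis, and Slc25a12 had intervals that held equality, as did the ratio of Slc25a15.

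Enzymes next to these carriers did not share a single direction. In the malate-aspartate shuttle the cytosolic enzymes had the higher ratios, with Got1 at 1.35 (1.29 to 1.41) and Mdh1 at 1.23 (1.19 to 1.27), while the matrix forms Got2 and Mdh2 were at 0.99 (0.97 to 1.02) and 1.07 (1.01 to 1.13). In the urea cycle, Asl was at 1.37 (1.31 to 1.43), Cps1 at 1.196 (1.19 to 1.21) and Otc, which uses the imported ornithine, at 0.97 (0.94 to 1.001). The branched-chain ketoacid dehydrogenase subunits Bckdha and Bckdhb were lower, at 0.92 (0.88 to 0.96) and 0.87 (0.82 to 0.93), while the carrier Slc25a44 was higher. Glud1, which acts on matrix glutamate, was 1.35-fold lower (1.33 to 1.37).

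Cofactor carriers went both ways. Of the 5 at the floor, 3 were higher with intervals that left out equality, beside 18.7% of all genes at the floor. Slc25a42 alone was lower by this rule, beside 20.8%. The 3 higher ones had the highest ratios among the 28. Slc25a17, the peroxisomal carrier of coenzyme A, FAD and NAD, was at 51.7 CPM in the AAOT pool and 38.9 CPM in the control pool, a ratio of 1.33 (1.203 to 1.47). Slc25a32, which takes folate and FAD into mitochondria, was at 28.1 CPM in the AAOT pool and 21.9 CPM in the control pool, a ratio of 1.28 (1.12 to 1.47). Slc25a51, the NAD importer, was at 110.1 CPM in the AAOT pool and 85.9 CPM in the control pool, a ratio of 1.28 (1.198 to 1.37). The folate enzyme Shmt2 had a ratio of 1.12 (1.06 to 1.18) and the mitochondrial NAD kinase Nadk2 one of 0.96 (0.92 to 1.01). The S-adenosylmethionine carrier Slc25a26 lay under the floor, at 5.50 CPM in the AAOT pool and 5.92 CPM in the control pool, with a counting interval of 0.696 to 1.235 for the ratio.

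The carnitine-acylcarnitine carrier was lower together with part of its shuttle. Slc25a20, which takes acylcarnitines into the matrix for oxidation, was at 80.6 CPM in the AAOT pool and 109 CPM in the control pool, 1.35-fold lower (1.26 to 1.45). Cpt1a, which forms the acylcarnitines at the outer membrane, was 1.26-fold lower (1.23 to 1.303), and Crat, the carnitine acetyltransferase, was 1.49-fold lower (1.37 to 1.63). Cpt2, which releases the acyl groups in the matrix, was at 154 CPM in the AAOT pool and 162 CPM in the control pool, with a counting interval of the ratio, 0.90 to 1.001, that holds equality.

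Slc25a37 (mitoferrin 1), which supplies mitochondria with iron and is best known from red cell precursors, was higher, while its relative Slc25a28 (mitoferrin 2) was level. Slc25a37 was at 67.5 CPM in the AAOT pool and 52.9 CPM in the control pool, a ratio of 1.27 (1.17 to 1.39). Slc25a28 was at 16.2 CPM in the AAOT pool and 16.3 CPM in the control pool, a ratio of 0.99 (0.84 to 1.17). The 6 erythroid markers summed to 353 CPM in the AAOT pool and 323 CPM in the control pool. Of the 4 at the floor, 2 were higher and 2 lower. Hba-a2 was at 158 CPM in the AAOT pool and 130 CPM in the control pool, a ratio of 1.21 (1.15 to 1.28). Hba-a1 had a ratio of 0.97 (0.92 to 1.03). How far reads of these 2 alpha-globin genes can be told apart was not examined. Alas2 was at 17.6 CPM in the AAOT pool and 18.5 CPM in the control pool, with an interval that held equality. The part of these markers in the result was not tested. The beta-globin gene Hbb-bs had 102 reads in the AAOT pool and 0 reads in the control pool, while its close copy Hbb-bt had 225 and 218. The labels give both pools the same genotype and background, and whether the mice were alike at this locus or elsewhere was not tested. A difference in background would enter every ratio given here and cannot be told apart from the treatment. Of the heme enzymes beside the mitoferrins, Alas1 was 2.003-fold higher (1.92 to 2.09) and Fech, which inserts the iron, was level at 0.96 (0.91 to 1.01). Slc25a39, which imports glutathione, was at 312 CPM in the AAOT pool and 292 CPM in the control pool, a ratio of 1.07 (1.03 to 1.11).

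Of 3 carriers without a settled substrate at the floor, 2 were lower and 0 higher with intervals that left out equality. The shares of all genes at the floor were 20.8% and 18.7%. Under the floor, Slc25a34 and Slc25a48 of this role were higher, as given below. Slc25a47, a carrier found mainly in liver, was at 279 CPM in the AAOT pool and 373 CPM in the control pool, 1.34-fold lower (1.29 to 1.39). Per kilobase it ranked 4 of 45 in the AAOT pool and 2 of 45 in the control pool. Its neighbour on chromosome 12, Slc25a29, which carries basic amino acids, had 51 reads in the AAOT pool and 74 reads in the control pool. Slc25a45 was at 15.8 CPM in the AAOT pool and 19.9 CPM in the control pool, 1.26-fold lower (1.08 to 1.49). Slc25a46, which takes part in mitochondrial fission, was level, at 58.6 CPM in the AAOT pool and 60.2 CPM in the control pool.

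**Figure D3:**
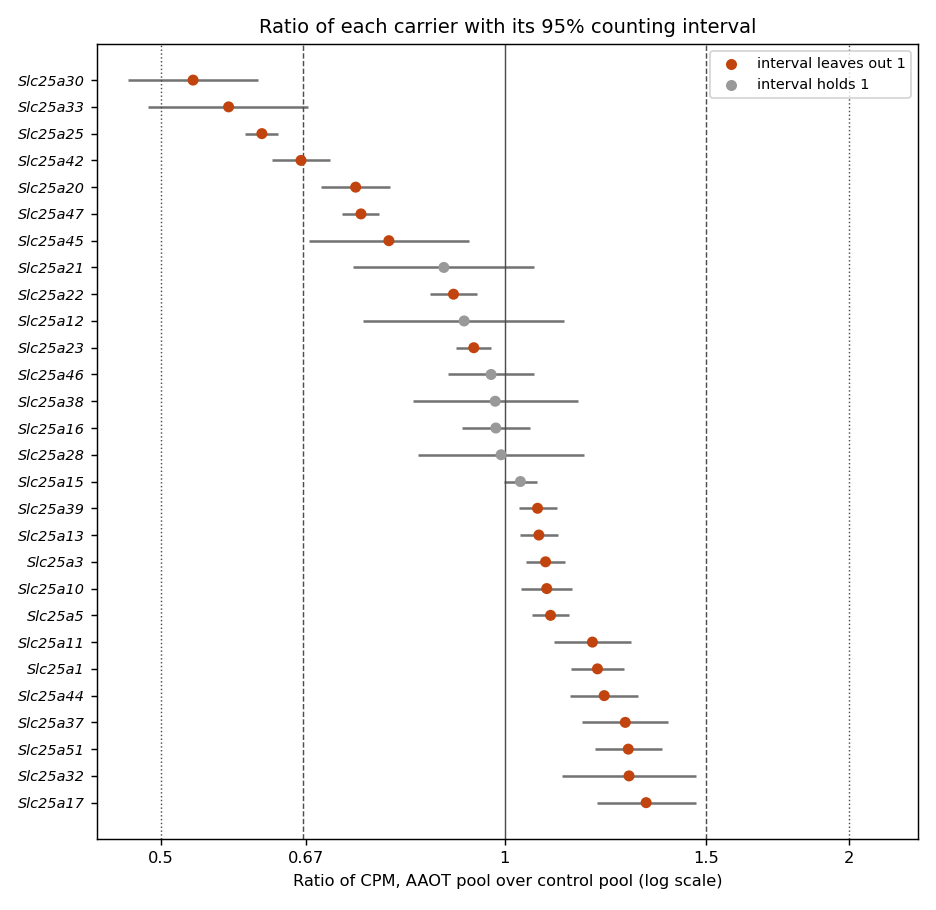
Ratio of CPM, AAOT pool over control pool, for the 28 carriers on a log axis, with exact 95% counting intervals as lines. Dashed lines mark 1.5-fold and dotted lines 2-fold in each direction. Slc25a30, Slc25a33, Slc25a25 and Slc25a42 lie at or left of the lower dashed line, and the highest ratio is that of Slc25a17 at 1.33.

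For genes under the floor no share over all genes was computed, so counts among them have no background. Of the 17 carriers there, 3 had intervals that left out equality, and all 3 were higher in the AAOT pool. Besides Slc25a36 these were Slc25a34, at 8.96 CPM in the AAOT pool and 6.19 CPM in the control pool, a ratio of 1.45 (1.13 to 1.86), and Slc25a48, at 9.92 CPM in the AAOT pool and 7.22 CPM in the control pool, a ratio of 1.37 (1.09 to 1.74). A further 6 carriers had fewer than 10 reads in each pool, namely Slc25a2, Slc25a18, Slc25a27, Slc25a41, Slc25a43 and Slc25a53. The other 14 carriers under the floor, these 6 and also Slc25a35 and Slc25a40 among them, had intervals that held equality. The values under the floor ran from 0 to 9.92 CPM in the AAOT pool and from 0.0539 to 7.22 CPM in the control pool.

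Over the family, the 28 carriers had a median log2 ratio of -0.02 beside -0.02 for all 7761 genes, and both medians were 0.02 when reads were scaled to the plain column total. Their ratios were spread more widely, with an SD of 0.35 across carriers and 0.29 across all genes. Within 1.25-fold of equality lay 18 of 28 carriers (64.3%), beside 87.1% of all genes. The counting interval left out equality for 12 higher and 9 lower carriers, beside the shares of all genes given above. Carriers had more reads than most genes, with a median of 100.7 CPM in the AAOT pool and 92.0 CPM in the control pool, beside 36.1 and 35.9 CPM for all genes.

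Summed over all 45 carriers, the level was 4097 CPM in the AAOT pool and 4321 CPM in the control pool, a ratio of 0.948 (0.939 to 0.958). The 4 carriers at least 1.5-fold lower summed to 471 CPM in the AAOT pool and 762 CPM in the control pool. The other 41 summed to 3626 CPM in the AAOT pool and 3559 CPM in the control pool, a ratio of 1.02 (1.008 to 1.03). As the 4 were set apart for their low ratios, this split is a description.

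**Figure D4:**
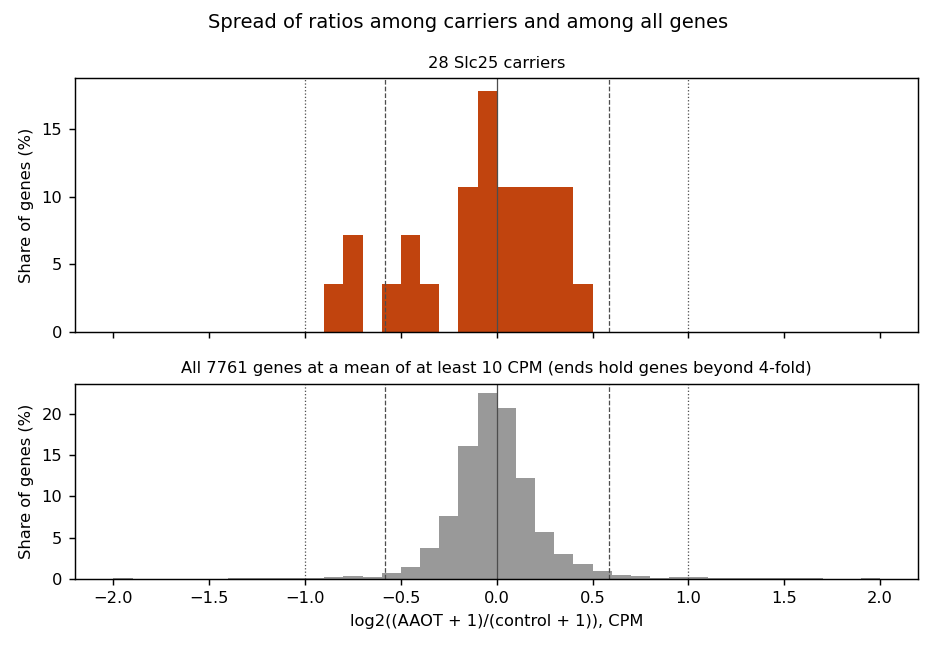
Share of genes, in percent, by log2((AAOT + 1)/(control + 1)) in bins of 0.1, for the 28 carriers above and all 7761 genes at the same floor below. Dashed lines mark 1.5-fold and dotted lines 2-fold. The carriers reach from -0.87 to 0.40, and the median is -0.02 in both panels.

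Other transporters of the mitochondrial membranes had no member past 1.5-fold. Of 17 at the floor, 0 were at least 1.5-fold higher or lower, near the shares of all genes, 2.07% higher and 1.39% lower. Of these 17, 9 had a ratio above 0 on the log2 scale and 8 below, and the median was 0.02 with an SD of 0.18. Sfxn1, the mitochondrial serine transporter, had the highest ratio, at 1.33 (1.24 to 1.44), and Mpc2, a subunit of the pyruvate carrier, the lowest, at 0.82 (0.78 to 0.86). Its partner subunit Mpc1 was at 0.95 (0.90 to 0.99), and the channel Vdac1 of the outer membrane at 1.14 (1.08 to 1.196). Also measured were 3 genes of the same family that carry other names. All 3 had intervals that held equality, where 18.7% of all genes at the floor had intervals above it and 20.8% below. The 3 were the uncoupling protein Ucp2, at 1.13 (0.99 to 1.29), and the outer membrane proteins Mtch1, at 0.95 (0.87 to 1.03), and Mtch2, at 1.05 (0.99 to 1.12). Of 26 enzymes at the floor that make or use what the carriers move, 3 were at least 1.5-fold higher, Acly, Me1 and Alas1, 0 were lower by that much, beside 2.07% and 1.39% of all genes, and their median log2 ratio was 0.11.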

How the data were processed

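RNA of 3 mice per group was mixed and sequenced as 1 library per group, from 200 ng of total RNA after depletion of ribosomal RNA, with a directional kit, per the labels' protocols. Expression was deposited by the authors as CPM in a single table, whose columns were matched to libraries by the code in the sample titles. Without giving their roles, the submitters' processing notes list edgeR, RSEM, Bowtie2 and Trimmomatic 0.38, and the build mm10. The annotation and the use of strand in counting are not given in the sources used here. Columns summed to 987690 in the AAOT pool and 1012463 in the control pool, so the deposited CPM include a scaling factor. All values (100%) were whole multiples of 1 step per column within a relative tolerance of 1e-06, which gave back whole reads.

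A count model was not fitted to these reads, since 1 library per group leaves no residual degrees of freedom. Ratios are plain ratios of CPM with exact Clopper-Pearson intervals conditional on the sum of both counts. They treat reads as independent molecules. Counts use log2((AAOT + 1)/(control + 1)) at a mean of at least 10 CPM and limits of 2-fold and 1.5-fold. The carriers, lists and motifs were chosen with earlier results of these data known. Carriers under the floor were left out of the counts past a limit and described apart, and 1 of them is not reported here by name. Carriers are described by role, those past 1.5-fold with position and sequence, and related genes by list. Unique stretches are 50-base stretches of the longest coding GENCODE M21 transcript that no other gene's transcript holds on either strand. Positions and promoter windows are from RefSeq on GRCm38, the assembly that mm10 names. Steps were tested on simulated reads. Alternatives were 3 scalings, added constants of 0.1 and 5 CPM, and floors of 1, 50 and 0 CPM. Values were computed with scipy 1.17.1, numpy 2.4.6 and pandas 2.3.3 in Python 3.11.15, and figures with matplotlib 3.10.9.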

Additional observations from a re-analysis of the deposited data

How the results depend on the processing

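No paired analysis was possible because each group has 1 library. The counts past 2-fold stayed at 0 higher and 0 lower under all 8 alternatives. The count of carriers at least 1.5-fold lower was 2 with a floor of 50 CPM, which leaves out Slc25a30 and Slc25a33 by its construction. It was 3 under the 3 scalings and with a constant of 5 CPM, which leave out Slc25a42, and 4 otherwise. The count at least 1.5-fold higher became 1, Slc25a36, both with the floor at 1 CPM and with all genes kept. The ratio of summed CPM was 0.972 with the plain column total and 0.959 with the median gene ratio set to 1. Without Rn45s and the 20 most abundant genes it was 0.9585. Under all 3 scalings this ratio lay above the upper end of its counting interval, 0.9579, which does not cover the choice of scaling. The median log2 ratio of the carriers ran from -0.03, with a floor of 1 CPM, to 0.09, with a floor of 50 CPM. Over all genes it was -0.01 with the floor at 1 CPM and -0.002 with that at 50 CPM. The medians of carriers and all genes were thus less alike at 50 CPM. All 84 rescaled ratios of single carriers (28 carriers, 3 scalings) stayed inside their counting intervals. Differences between mice and between library preparations cannot be told apart from the treatment in this design. Carriers with fewer than 10 reads in each pool have intervals too wide to place them.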

Other observations

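Regulators of mitochondrial and lipid genes, from a list of 10 that were all at the floor, went both ways, with 2 at least 1.5-fold higher and 0 at least 1.5-fold lower, beside 2.07% and 1.39% of all genes. The coactivator Ppargc1a was at 17.8 CPM in the AAOT pool and 8.19 CPM in the control pool, a ratio of 2.18 (1.78 to 2.66), while its relative Ppargc1b was level at 1.06 (0.89 to 1.27). The second was Mlxipl (ChREBP), which acts on genes of glycolysis and lipid synthesis, at 271 CPM in the AAOT pool and 162 CPM in the control pool, a ratio of 1.67 (1.59 to 1.75). The lowest ratios were those of Ppara, which acts on genes of fatty acid oxidation, 1.47-fold lower (1.42 to 1.52), and Srebf1, which acts on genes of lipid synthesis, 1.45-fold lower (1.41 to 1.499). Nfe2l2, which acts on antioxidant genes, had a ratio of 1.098 (1.01 to 1.19). Of the remaining listed factors, Tfam was at 34.4 CPM in the AAOT pool and 41.5 CPM in the control pool. Its ratio was 0.83 (0.74 to 0.92), and that of Gabpa was 0.91 (0.84 to 0.996). Esrra, at 22.2 CPM in both pools, had a ratio of 0.9995 (0.87 to 1.15), and Nrf1 one of 0.85 (0.69 to 1.05). Whether any of these acts on the carriers was not tested.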
